A study of Mus musculus with 12 samples.

Results

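Heat shock proteins and their co-chaperones were examined in CD71-enriched bone marrow cells of mice with 4 genotypes. Of 10 listed genes, Hsph1, Dnajb1, Dnaja1, Hspa4, Hspa8, Hspa5, Hsp90aa1, Hspd1 and Hspe1 were measured, and Hsp90ab1 is not analysed here. A gene was taken from the probe sets that carry its symbol and no other, averaged where there were several, which gave 16 probe sets for the 9 genes out of 28815 probe sets and 19935 genes in all. The list was chosen by symbol with the measured difference between CD70TG and WT mice already known. That difference, and those that share its arrays, are therefore given for the 9 genes as descriptions and support nothing.

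The cells came from crushed hind leg bones of male mice on a C57BL/6 background, aged 10 to 12 weeks, and were enriched on magnetic beads with an antibody to CD71, the transferrin receptor of red cell precursors. The groups were CD70TG*Ifng-/- mice, which carry a CD70 transgene and lack interferon-gamma, CD70TG mice with the transgene and intact Ifng (named in the labels as clone F13), Ifng-/- mice without the transgene, and WT mice with neither change. The promoter that drives the transgene is not given in the sources used here. Each group held 3 arrays, each from a separate mouse, and the design compares the transgene with and without Ifng, and loss of Ifng with and without the transgene. The 9 genes are described before any comparison, then the wider set of chaperone genes is tested.

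Heat shock proteins are chaperones that bind unfolded or newly made proteins and let them fold. Hsp70 proteins work in a cycle in which J-domain proteins deliver the client and nucleotide exchange factors release it, and clients such as kinases and receptors pass on to Hsp90. Heat shock factors, which bind alternating units of GAA and TTC upstream of these genes, raise many of them together when proteins unfold, and Hsp70 is known from human erythroblasts to shield the red cell transcription factor GATA1 from caspase cleavage.

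The promoters of Hspe1, Hsph1 and Hspa5 are shown because they hold letters of known stress motifs, those of heat shock factors in Hspe1 and Hsph1 and that of the endoplasmic reticulum stress response in Hspa5. They are the 250 bases upstream of a RefSeq start on build GRCm38.p6, printed 5′ to 3′ on the gene's own strand. Capitals mark matches to a motif on either strand. Hspe1 (chr1:55087898-55088147, plus strand) carries overlapping matches to 3 alternating units (GAA, TTC and GAA, each set 2 bases apart), Hsph1 (chr5:149636337-149636586, minus strand) a match to 2 units (TTCNNGAA), and Hspa5 (chr2:34771840-34772089, plus strand) a match to the endoplasmic reticulum stress element.
Hspe1: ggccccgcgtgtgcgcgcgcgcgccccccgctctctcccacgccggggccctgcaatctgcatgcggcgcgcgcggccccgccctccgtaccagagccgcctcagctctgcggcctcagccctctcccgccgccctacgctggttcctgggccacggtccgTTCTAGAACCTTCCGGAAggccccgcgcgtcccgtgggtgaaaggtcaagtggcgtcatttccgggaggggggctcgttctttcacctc
Hsph1: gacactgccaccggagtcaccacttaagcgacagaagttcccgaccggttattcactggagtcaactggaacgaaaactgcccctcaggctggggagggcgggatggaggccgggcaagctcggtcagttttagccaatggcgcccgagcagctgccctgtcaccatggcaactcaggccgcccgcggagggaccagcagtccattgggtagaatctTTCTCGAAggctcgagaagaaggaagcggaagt
Hspa5: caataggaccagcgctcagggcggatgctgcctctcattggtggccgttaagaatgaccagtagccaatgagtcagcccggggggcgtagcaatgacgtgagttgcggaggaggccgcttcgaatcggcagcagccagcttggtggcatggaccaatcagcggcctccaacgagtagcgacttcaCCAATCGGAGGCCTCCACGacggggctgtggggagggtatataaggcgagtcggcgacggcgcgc

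The marked run of Hspe1 lies 89 to 72 bases upstream of its start. Hspd1 is transcribed away from it on the minus strand, and 215 bases of the 250-base windows of the pair are the same DNA (chr1:55087933-55088147). Another Hspd1 start, whose window is chr1:55088244-55088493, held no match, and the marked run lies downstream of it. The same 18 bases (chr1:55088059-55088076) read as below on the Hspd1 strand, 144 to 127 bases upstream of the Hspd1 start used here.
Hspd1: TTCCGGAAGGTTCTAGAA

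RefSeq promoters were at hand for 7 of the 10 genes (Hspd1, Hspe1, Hspa5, Dnaja1, Hsph1, Dnajb1 and Hspa4), some with several starts. Percentages here count single promoters, whereas a gene was counted if any of its starts matched. Among 32851 promoters searched, 0.466% held 3 units, and of the 7 genes Hspd1 and Hspe1 did. Pairs of units were commoner: 6.69% of all promoters held GAANNTTC, as did Dnaja1, Hspd1 and Hspe1, and 7.17% held TTCNNGAA, as did Hsph1, Hspd1 and Hspe1. Both pair motifs lie inside the 3-unit motif, so these matches overlap. The stress element was in 0.113% of promoters and, of the 7, in Hspa5, 65 to 47 bases upstream. A match describes these letters only. Of the 16 Hsp90 co-chaperone genes with a promoter in the table, 2 held GAANNTTC, 3 held TTCNNGAA and 0 held the 3 units.

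All expression values are log2 values relative to each probe set's own median over the 12 arrays, so levels can be compared between mice but not between genes. In bulk RNA, fewer cells of a type and less RNA per cell cannot be told apart. The rounding step of the numbers showed an original log2 level of 8 or more for 15.1% of probe sets, and all 9 genes had a probe set in that higher level class, which holds 2844 genes. For Dnaja1 this holds for 1 of its 2 probe sets, and the other was not at that level on every array. The class shifted as a whole between groups. The median difference of its genes was 0.19 between CD70TG and WT and 0.11 between Ifng-/- and WT, against -0.04 and -0.03 for genes of the lower class, so each difference below has to be read beside this shift. The array medians over all probe sets lay between -0.021 and 0.027. All 12 measured red cell precursor markers, among them Tfrc, which encodes CD71, were in the higher class. Ifng itself differed by -0.10 ± 0.09 between Ifng-/- and WT mice (SE, adjusted p = 0.632), while the extent of the deletion is not described. Cd70 was 0.26 ± 0.12 above WT in CD70TG mice (adjusted p = 0.18) and 0.39 ± 0.12 above Ifng-/- in CD70TG*Ifng-/- mice (adjusted p = 0.135), neither past the threshold of 0.05.

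Across the 9 genes the WT mice were the low group. The WT mean was the lowest of the 4 group means for 9 of 9 genes, whereas WT was lowest for 29.8% of all genes and for 66.1% of genes of the higher level class. The highest mean was that of CD70TG mice for Hsph1, Hspa4, Hspa5, Hspd1 and Hspe1, and that of Ifng-/- mice for Dnajb1, Dnaja1, Hspa8 and Hsp90aa1. The double mutant had neither the highest nor the lowest mean of any of the 9.

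**Figure D1:**
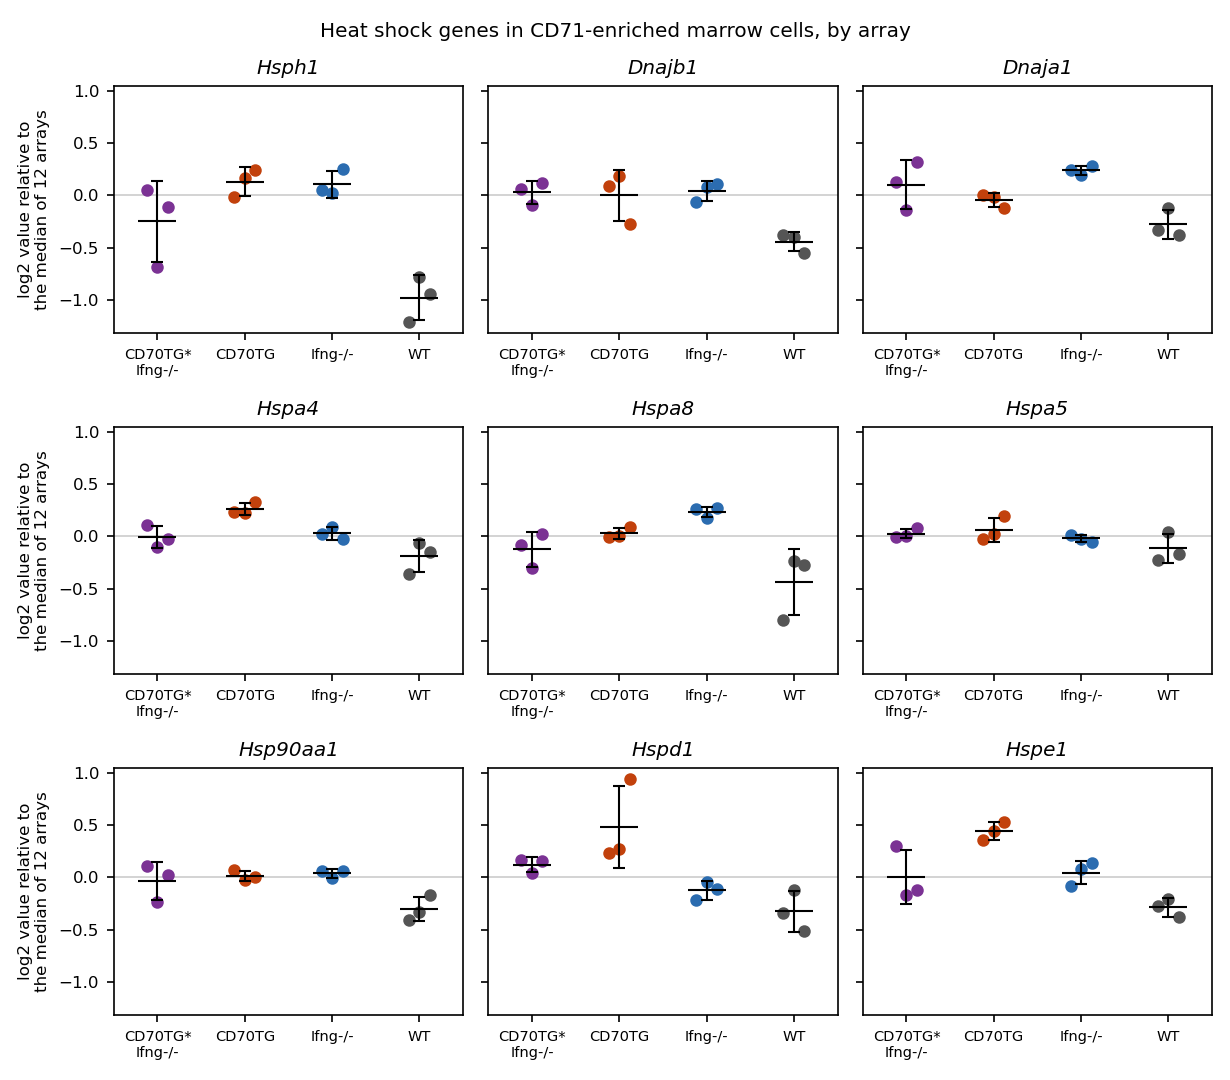
Log2 value of each of the 9 heat shock genes relative to its median over 12 arrays (vertical axis) in CD70TG*Ifng-/-, CD70TG, Ifng-/- and WT mice (horizontal axis). Points are single mice, bars are the group mean and SD (n = 3). WT has the lowest mean in all 9 panels, and the widest gap is that of Hsph1, whose WT arrays lie between -1.20 and -0.78.

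Hsph1, the Hsp110 protein that recharges Hsp70 with ATP, had the widest range over the 12 arrays. It measured 0.05, -0.69 and -0.11 in CD70TG*Ifng-/- mice, -0.02, 0.17 and 0.25 in CD70TG mice, 0.05, 0.02 and 0.26 in Ifng-/- mice, and -1.20, -0.78 and -0.94 in WT mice. All 3 WT arrays were below the other 9, and among those 9 only the array of CD70TG*Ifng-/- mouse 2 came near them, so that the WT group overlapped no other group while the other 3 overlapped each other. Its mean was -0.25 ± 0.39 in CD70TG*Ifng-/-, 0.13 ± 0.14 in CD70TG, 0.11 ± 0.13 in Ifng-/- and -0.97 ± 0.22 in WT mice (SD, n = 3 each). The difference was 1.10 ± 0.16 (SE) between CD70TG and WT, which is 2.15-fold, and 1.08 ± 0.16 between Ifng-/- and WT.

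Hspa4, a second exchange factor of the same family, had its highest values in CD70TG mice. Its values were 0.11, -0.10 and -0.03 in CD70TG*Ifng-/- mice, 0.23, 0.23 and 0.33 in CD70TG mice, 0.03, 0.09 and -0.03 in Ifng-/- mice, and -0.36, -0.06 and -0.14 in WT mice. The CD70TG arrays lay above all 9 others. The Ifng-/- arrays lay above the WT arrays too, but CD70TG*Ifng-/- overlapped with both Ifng-/- and WT. The difference was 0.45 ± 0.09 between CD70TG and WT and 0.22 ± 0.09 between Ifng-/- and WT.

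Hspa8, the constitutive cytosolic Hsp70, had the order Ifng-/-, CD70TG, CD70TG*Ifng-/- and WT from high to low. It measured -0.08, -0.31 and 0.02 in CD70TG*Ifng-/- mice, 0.00, 0.00 and 0.09 in CD70TG mice, 0.26, 0.18 and 0.27 in Ifng-/- mice, and -0.80, -0.24 and -0.27 in WT mice. The Ifng-/- arrays lay above all 9 others, WT mouse 1 stood well below the rest, and the other 2 WT arrays overlapped the range of CD70TG*Ifng-/-. The difference between CD70TG and WT was 0.46 ± 0.13, and 0.28 without WT mouse 1. Its 3 probe sets gave nearly the same numbers, with a largest gap of 0.06 on any array.

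Hspa5, the Hsp70 of the endoplasmic reticulum, had the narrowest range of the 9. Its values were -0.01, 0.01 and 0.08 in CD70TG*Ifng-/- mice, -0.03, 0.02 and 0.20 in CD70TG mice, 0.02, -0.02 and -0.05 in Ifng-/- mice, and -0.22, 0.05 and -0.16 in WT mice. Every group overlapped its neighbours. The difference between CD70TG and WT was 0.18 ± 0.08, close to the median of its level class.

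The J-domain proteins Dnajb1, the stress-inducible Hsp40, and Dnaja1, a farnesylated relative, were highest in Ifng-/- mice. Dnajb1 measured 0.06, -0.09 and 0.12 in CD70TG*Ifng-/- mice, 0.09, 0.19 and -0.27 in CD70TG mice, -0.06, 0.08 and 0.11 in Ifng-/- mice, and -0.38, -0.40 and -0.55 in WT mice. All WT arrays lay below the other 9, while the other 3 groups overlapped and CD70TG mouse 3 was the lowest among them. Its difference was 0.44 ± 0.11 between CD70TG and WT and 0.48 ± 0.11 between Ifng-/- and WT.

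Dnaja1 measured 0.13, -0.14 and 0.32 in CD70TG*Ifng-/- mice, 0.01, -0.02 and -0.12 in CD70TG mice, 0.24, 0.20 and 0.28 in Ifng-/- mice, and -0.33, -0.12 and -0.38 in WT mice. The Ifng-/- arrays were above all CD70TG and all WT arrays, and the lowest CD70TG array lay level with the highest WT array. The difference was 0.23 ± 0.10 between CD70TG and WT and 0.51 ± 0.10 between Ifng-/- and WT. The 2 probe sets of Dnaja1 disagreed on CD70TG mouse 3, by 0.46, the largest gap between probe sets of any of these genes. The probe set outside the higher level class was the lower of the pair there, at -0.35 against 0.11.

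Hsp90aa1, the inducible cytosolic Hsp90, separated WT from both single mutants. It measured 0.11, -0.24 and 0.02 in CD70TG*Ifng-/- mice, 0.07, -0.03 and 0.01 in CD70TG mice, 0.06, -0.01 and 0.06 in Ifng-/- mice, and -0.40, -0.33 and -0.17 in WT mice. The WT arrays lay below all CD70TG and Ifng-/- arrays, and only CD70TG*Ifng-/- mouse 2 fell within the WT range. The difference was 0.32 ± 0.09 between CD70TG and WT and 0.34 ± 0.09 between Ifng-/- and WT.

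The mitochondrial pair Hspd1 and Hspe1, which build the chaperonin barrel and its lid, had their highest values in CD70TG mice. Hspd1 measured 0.17, 0.05 and 0.16 in CD70TG*Ifng-/- mice, 0.23, 0.27 and 0.94 in CD70TG mice, -0.22, -0.05 and -0.11 in Ifng-/- mice, and -0.34, -0.12 and -0.51 in WT mice. CD70TG lay above CD70TG*Ifng-/-, and that above Ifng-/-, with no overlap at either step, and Ifng-/- overlapped with WT. CD70TG mouse 3 stood apart as the highest array, on both probe sets of the gene. The same array had the highest values of the granule genes Mpo (2.03) and Prtn3 (1.77) and of Hspa9 (0.71), the mitochondrial Hsp70, and the part of this array's other cells in the Hspd1 value was not tested.

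Hspe1 measured 0.30, -0.17 and -0.12 in CD70TG*Ifng-/- mice, 0.36, 0.44 and 0.52 in CD70TG mice, -0.08, 0.08 and 0.14 in Ifng-/- mice, and -0.27, -0.21 and -0.38 in WT mice. The CD70TG arrays lay above all 9 others and the WT arrays below all 9 others, with Ifng-/- and CD70TG*Ifng-/- overlapping between them. The difference between CD70TG and WT was 0.80 ± 0.15 for Hspd1 (1.75-fold) and 0.73 ± 0.11 for Hspe1 (1.66-fold). Between Ifng-/- and WT it was 0.20 ± 0.15 for Hspd1 and 0.33 ± 0.11 for Hspe1. Transcripts of Hspa8, Hsp90aa1, Hspd1, Hspe1 and Dnaja1 share sequence with near-identical copies elsewhere in the genome, which leaves the gene behind a probe set uncertain. Agreement between the probe sets of such a gene, as for Hspa8 and Hspd1 above, does not settle this.

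With Ifng intact, CD70TG mice had higher values than WT mice for 9 of 9 genes, with a median difference of 0.45 and a range of 0.18 to 1.10. Of these, 7 are past the threshold, against 8.23% of all genes and 22.4% of genes of the higher level class that are higher at that threshold. They are Hsph1, Dnajb1, Hspa4, Hspa8, Hsp90aa1, Hspd1 and Hspe1. The same 7 genes had no overlap between CD70TG and WT arrays, as did 17.6% of all genes in that direction and 43.4% of genes of the higher class. As the list was proposed with this comparison known, nothing is read from these counts. When each array was centred within the level classes, the median difference was 0.30 and 4 genes were past the threshold, Hsph1 at 0.96, Hspd1 at 0.66, Hspe1 at 0.58 and Hspa4 at 0.30. The same number, 4, was past it without WT mouse 1, CD70TG mouse 1 or CD70TG mouse 2, and Hsph1, Hspa4, Hspd1 and Hspe1 were past it with each of the 12 arrays left out.

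Without Ifng, the difference of means comes from 6 arrays that the first comparison does not use, while its error is estimated over all 12, and 0 of the 9 genes passed (limma, adjusted p from 0.236 to 0.969), against 2.5% of all genes in either direction. At an unadjusted p under 0.05 there were 2, Hsph1 and Hspa8, against 12.1% of all genes, and both were lower in the transgenic mice. Hsph1 differed by -0.36 ± 0.16 (SE, adjusted p = 0.387) and Hspa8 by -0.36 ± 0.13 (adjusted p = 0.236). Hspa8 arrays of CD70TG*Ifng-/- all lay below those of Ifng-/-, as in 7.09% of all genes. Hspd1 was the gene furthest the other way, at 0.25 ± 0.15 (adjusted p = 0.546), with all CD70TG*Ifng-/- arrays above all Ifng-/- arrays, as in 9.32% of genes. Hspe1, Hspa4, Dnajb1, Hspa5 and Hsp90aa1 differed by between -0.07 and 0.04, with standard errors of 0.08 to 0.11, and Dnaja1 by -0.14 ± 0.10 (adjusted p = 0.638). The median over the 9 was -0.04, and 0.04 over all genes.

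**Figure D2:**
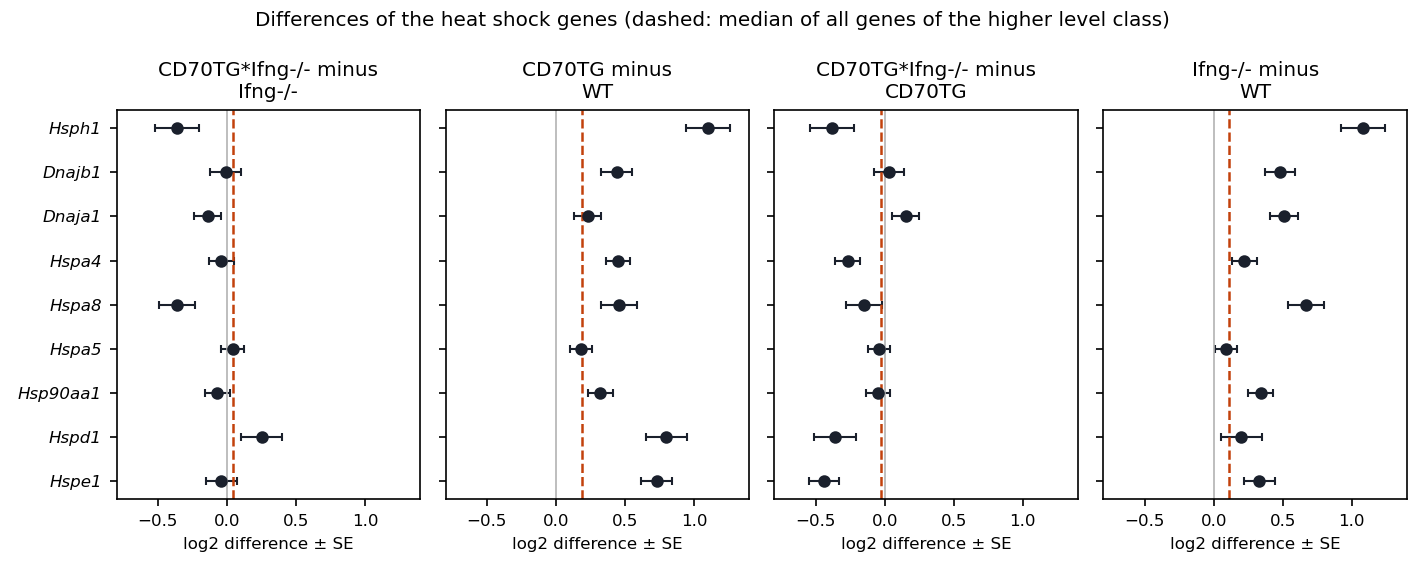
Log2 difference of each of the 9 heat shock genes in 4 comparisons (horizontal axis, points with SE, n = 3 mice per group), with genes down the page. The dashed line is the median of all genes of the higher level class. In both comparisons with WT all 9 points lie above 0, whereas between CD70TG*Ifng-/- and Ifng-/- they run from -0.36 to 0.25.

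Loss of Ifng without the transgene gave values above WT for 9 of 9 genes, with a median of 0.34 and a range of 0.09 to 1.08, beside a median of 0.11 over the higher level class. None was past the threshold, at which a single gene of all (0.00502%) was called. At an unadjusted p under 0.05 there were 7 of the 9, beside 13.8% of all genes and 22.0% of the higher class. Hsph1, Dnajb1, Dnaja1, Hspa4, Hspa8, Hsp90aa1 and Hspe1 had all Ifng-/- arrays above all WT arrays, against 9.43% of all genes and 21.8% of the higher class. This comparison uses the same WT arrays as that of CD70TG with WT, so low WT values enter both. With the fit restricted to genes of the higher class, 4 of the 9 were past the threshold, against 0.563% of that class, as were 2 in the fit of all genes without WT mouse 2 and 1 without CD70TG*Ifng-/- mouse 1 or 2.

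Loss of Ifng with the transgene gave lower values for 7 of 9 genes, with a median of -0.15. None was past the threshold, against 1.41% of all genes, and 4 were at an unadjusted p under 0.05, against 11.2% of all genes. Those 4 were Hspe1 at -0.44 ± 0.11, Hsph1 at -0.38 ± 0.16, Hspd1 at -0.36 ± 0.15 and Hspa4 at -0.27 ± 0.09. Hspa4, Hspd1 and Hspe1 had all CD70TG*Ifng-/- arrays below all CD70TG arrays, as in 8.27% of genes. Dnaja1 and Dnajb1 were the exceptions in direction, at 0.15 ± 0.10 and 0.03 ± 0.11. The comparison shares the CD70TG arrays with that of CD70TG and WT.

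The transgene effect with Ifng minus that without it was above 0 for 9 of 9 genes, from 0.13 for Hspa5 to 1.46 for Hsph1, with a median of 0.49 beside 0.15 for the higher level class. Of these, 3 were past the threshold, Hsph1, Hspa8 (0.82 ± 0.18) and Hspe1 (0.77 ± 0.16), against 1.61% of all genes that were higher and 3.16% of the higher class. This contrast holds the CD70TG and WT difference, so it too is a description for these genes. Hsph1 stayed past the threshold with each of the 12 arrays left out, Hspe1 in 5 of 12 and Hspa8 in 4 of 12.

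**Figure D3:**
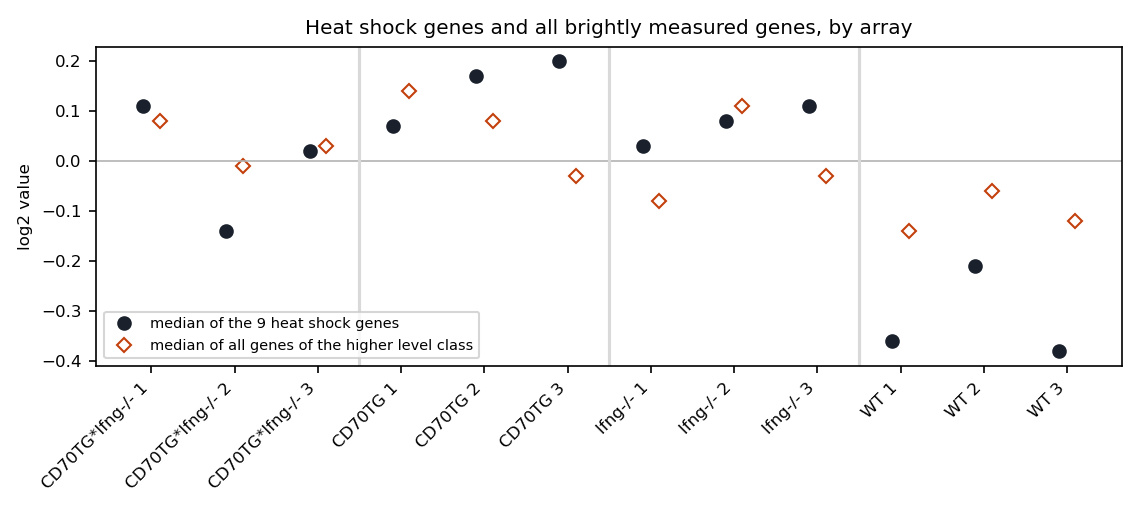
Median log2 value on each array (vertical axis) over the 9 heat shock genes (filled circles) and over all 2844 genes of the higher level class (open diamonds), with the 12 mice along the horizontal axis. The heat shock medians of WT lie between -0.38 and -0.21 and those of the higher class between -0.14 and -0.06.

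The array medians of the 9 genes put the group difference beside the shift of the class. The heat shock median was 0.11, -0.14 and 0.02 in CD70TG*Ifng-/- mice, 0.07, 0.17 and 0.20 in CD70TG mice, 0.03, 0.08 and 0.11 in Ifng-/- mice, and -0.36, -0.21 and -0.38 in WT mice. The WT values lay below all others. The class median was 0.08, -0.01 and 0.03 in CD70TG*Ifng-/- mice, 0.14, 0.08 and -0.03 in CD70TG mice, -0.08, 0.11 and -0.03 in Ifng-/- mice, and -0.14, -0.06 and -0.12 in WT mice. On CD70TG mouse 3 the class stood at -0.03 while the heat shock genes had their highest array median.

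The wider chaperone network was read from 8 lists of 127 other genes, of which 122 were measured, and these lists were tested in every comparison. The lists too were drawn up with earlier results of these data known, so their counts are not independent evidence of a direction. In CD70TG mice 40 rose and 2 fell relative to WT, against 8.23% of all genes that were higher and 2.7% that were lower. Of the higher level class, to which 42 of the 122 belong, 22.4% were higher and 4.43% lower. The median difference of the 122 was 0.22, beside -0.02 over all genes and 0.19 over the higher level class. With centring within the level classes 27 were higher and 3 lower. The count of higher genes fell to 15 without WT mouse 1, 16 without CD70TG mouse 2, 18 without CD70TG mouse 1 and 21 without WT mouse 3.

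Hsp90 co-chaperones, which load clients onto Hsp90 or set its ATPase, held the most calls. In CD70TG mice 13 of 17 rose relative to WT and 0 fell, beside 8.23% of all genes and 22.4% of the higher level class that were higher. Of the 17, 9 belong to that class. The median of the 17 was 0.39, beside 0.19 for the class, and 10 rose with centring within the level classes. The count was 8 without WT mouse 1, WT mouse 3, CD70TG mouse 1 or CD70TG mouse 2. Stip1, the adaptor that joins Hsp70 to Hsp90, measured -0.02, -0.44 and -0.04 in CD70TG*Ifng-/- mice, 0.11, 0.09 and 0.02 in CD70TG mice, 0.09, 0.06 and 0.21 in Ifng-/- mice, and -0.62, -0.36 and -0.37 in WT mice. The WT arrays lay below all CD70TG and all Ifng-/- arrays, and CD70TG*Ifng-/- mouse 2 within the WT range, the same layout as Hsp90aa1. Stip1 rose by 0.52 ± 0.11 (SE, adjusted p = 0.00834) in CD70TG mice relative to WT. Nudc rose by 0.51 ± 0.08 (adjusted p = 0.00206), the prolyl isomerase Ppid by 0.47 ± 0.08 (adjusted p = 0.00361) and Ahsa1, which activates the Hsp90 ATPase, by 0.50 ± 0.09 (adjusted p = 0.00481).

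Without Ifng the same list had 0 of 17 past the threshold and a median of -0.04. At an unadjusted p under 0.05 there were 3, of which 2 were lower, beside 12.1% of all genes. In Ifng-/- relative to WT there were also 0 past the threshold, with a median of 0.24. Of the 17, 10 were at an unadjusted p under 0.05, all higher, beside 13.8% of all genes and 22.0% of the higher level class. In CD70TG*Ifng-/- relative to CD70TG there were 0 past the threshold, and 5 at an unadjusted p under 0.05, all lower, beside 11.2% of all genes. Beside 1.61% of all genes and 3.16% of the higher level class, the transgene effect was larger with Ifng for 4 of the 17. They were Stip1, Ahsa1, Chordc1 and Nudc. That count was 0 without WT mouse 1 or CD70TG mouse 2, 2 without WT mouse 3 or Ifng-/- mouse 3, and at most 6 with any array left out.

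Among other Hsp70 proteins and their regulators, 5 of 17 rose in CD70TG relative to WT and 0 fell. The share that rose was 8.23% of all genes and 22.4% of the higher level class, which holds 5 of the 17. The ubiquitin ligase Stub1, which sends Hsp70 clients to the proteasome, rose by 0.43 ± 0.07 (adjusted p = 0.00294), and Bag3, an exchange factor, by 0.37 ± 0.08 (adjusted p = 0.0144). Hspa4l, a relative of Hspa4, rose by 0.33 ± 0.09 (adjusted p = 0.0282). The heat-inducible Hspa1a measured 0.41, 0.01 and 0.09 in CD70TG*Ifng-/- mice, 0.08, -0.07 and -0.01 in CD70TG mice, 0.38, -0.03 and 0.28 in Ifng-/- mice, and -0.54, -0.02 and -0.14 in WT mice. WT was again low, but its range overlapped that of CD70TG, and the difference of 0.23 ± 0.14 did not pass (adjusted p = 0.318). Hspa1b is not analysed here. St13, which steadies Hsp70 in its client-bound state, was 0.44 ± 0.14 above WT in CD70TG mice without passing (adjusted p = 0.0577).

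Small heat shock proteins, which hold unfolded proteins without ATP, had 0 of 9 past the threshold in this comparison and a median of -0.09. None of the 9 belongs to the higher level class. Of genes of the lower class 5.87% were higher and 2.42% lower in this comparison. Hspb1 differed by -0.07 ± 0.10 (adjusted p = 0.701). Of the heat shock factors and other heat shock genes, 1 of 7 rose, Hikeshi, the importer of Hsp70 into the nucleus, by 0.40 ± 0.09 (adjusted p = 0.0132). The share that rose was 8.23% of all genes and 5.87% of the lower class, to which all 7 belong. Hsf2, a heat shock factor, differed by -0.05 ± 0.11 (adjusted p = 0.826), and Hsf1 is not analysed here. Of 6 measured prefoldin subunits 2 rose, Pfdn6 by 0.35 ± 0.09 (adjusted p = 0.0223) and Pfdn4 by 0.37 ± 0.11 (adjusted p = 0.0455). Of the 6, 2 belong to the higher level class, where 22.4% of genes rose, beside 8.23% of all genes. The erythroid chaperone Ahsp is not analysed here.

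**Figure D4:**
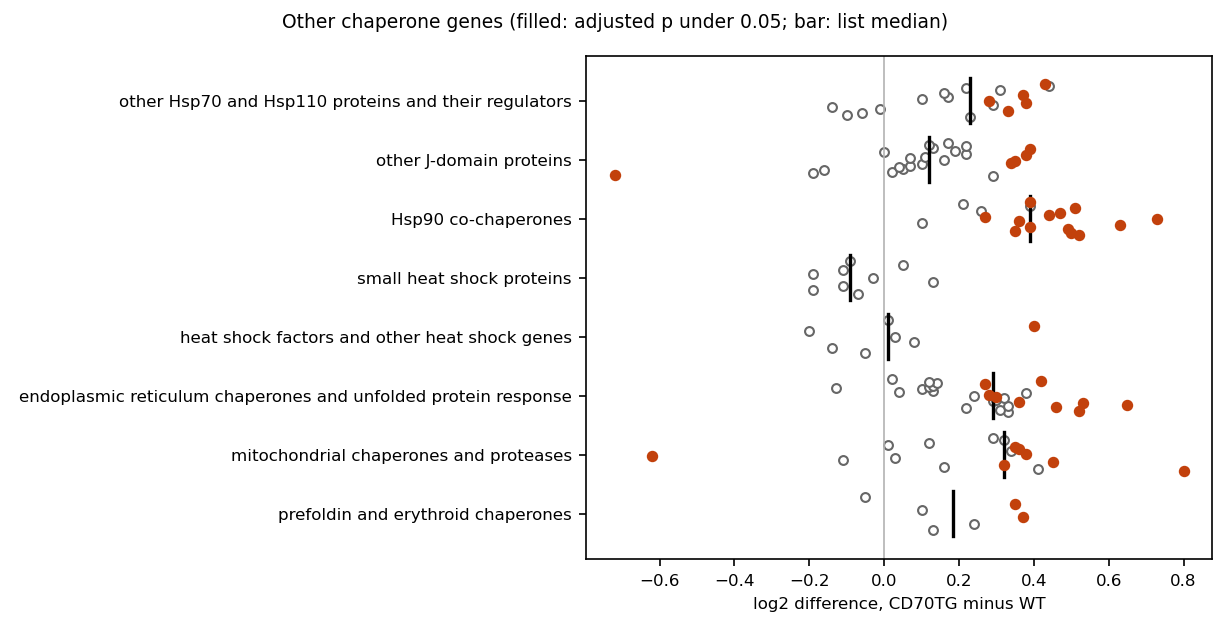
Log2 difference between CD70TG and WT (horizontal axis) for each measured gene of the 8 other chaperone lists (rows). Filled points passed an adjusted p of 0.05, open points did not, and the bar is the list median. Of 17 Hsp90 co-chaperones 13 are filled, of 9 small heat shock proteins 0.

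The list of other J-domain proteins had 4 of 23 higher and 1 lower in CD70TG relative to WT. With the J-domain genes of the reticulum and mitochondrial lists it was 6 of 31 higher and 2 lower. Of all genes 8.23% were higher and 2.7% lower, and of the higher level class 22.4% and 4.43%. Of the 23, 8 belong to that class. Dnaja4, a type A J-domain protein like Dnaja1, measured -0.01, 0.10 and 0.01 in CD70TG*Ifng-/- mice, -0.54, -0.62 and -1.10 in CD70TG mice, 0.11, 0.24 and 0.13 in Ifng-/- mice, and -0.07, 0.10 and -0.15 in WT mice. Its CD70TG arrays lay below all 9 others. Dnaja4 fell by 0.72 in CD70TG relative to WT (SE 0.12, adjusted p = 0.0026) and was 0.79 ± 0.12 higher in CD70TG*Ifng-/- than in CD70TG (adjusted p = 0.00258). It was the only one of the 122 past the threshold in that second comparison, in which 0.426% of all genes were higher. Both of its calls held with each of the 12 arrays left out.

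In the mitochondria 6 of 16 chaperone and protease genes rose in CD70TG relative to WT and 1 fell, and 5 rose with centring within the level classes. Of all genes 8.23% were higher and 2.7% lower. In the higher level class, which holds 6 of the 16, it was 22.4% and 4.43%. Hspa9, the mitochondrial Hsp70, measured 0.28, 0.08 and -0.02 in CD70TG*Ifng-/- mice, 0.31, 0.29 and 0.71 in CD70TG mice, -0.23, 0.02 and -0.14 in Ifng-/- mice, and -0.45, -0.25 and -0.38 in WT mice. As with Hspd1, CD70TG lay above every other array and mouse 3 stood highest. Hspa9 rose by 0.80 ± 0.12 (adjusted p = 0.00102), and its J-domain partner Dnaja3 by 0.45 ± 0.10 (adjusted p = 0.0114). Hscb, a J-domain protein of iron-sulphur cluster assembly, fell by 0.62 (SE 0.14, adjusted p = 0.0116).

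Endoplasmic reticulum chaperones and genes of the unfolded protein response had 9 of 27 higher and 0 lower in CD70TG relative to WT. With centring within the level classes 3 were higher. The share that was higher was 8.23% of all genes and 22.4% of the higher level class, to which 12 of the 27 belong. P4hb, a disulphide isomerase, rose by 0.53 ± 0.13 (adjusted p = 0.0205) and Pdia3, a second isomerase, by 0.46 ± 0.14 (adjusted p = 0.0487). Dnajc10, a J-domain reductase that partners Hspa5, rose by 0.30 ± 0.08 (adjusted p = 0.0266) with Ifng and by 0.33 ± 0.08 (adjusted p = 0.0384) without it. It was the only one of the 122 past the threshold without Ifng, where 0.156% of all genes were higher. That call held with 3 of the 12 arrays left out, WT mouse 2, CD70TG mouse 3 or Ifng-/- mouse 2, and was lost without each of the others (adjusted p up to 0.228, without Ifng-/- mouse 1). Without Ifng-/- mouse 2, 4 of the 122 were higher and 1 lower past the threshold.

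In Ifng-/- relative to WT 0 of the 122 genes passed, and 30 (24.6%) were at an unadjusted p under 0.05, all higher. In either direction the share was 13.8% of all genes, 22.0% of the higher level class and 12.5% of the lower class. Of the 122, 42 belong to the higher class. The transgene effect was larger with Ifng than without it for 1.61% of all genes and 3.16% of the higher level class. It was smaller for 0.281% and 0.879%. Of the 122, it was larger for 9 and smaller for 0. They are the 4 co-chaperones above, St13, Dnajc21, P4hb, Pdia3 and Sel1l, and the count ran from 0 without WT mouse 1 or CD70TG mouse 2 to 18 without CD70TG*Ifng-/- mouse 1. It was 3 without WT mouse 3, CD70TG mouse 3, Ifng-/- mouse 3 or CD70TG*Ifng-/- mouse 2 or 3, 4 without Ifng-/- mouse 2 and 5 without Ifng-/- mouse 1. Macrophage markers moved the same way in this contrast, with 6 of 16 higher, 0 lower and a median of 0.76, and B cell markers the other way, with 2 of 10 lower. The part of these cells in the chaperone values was not tested.

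Genes with the array pattern most like Hsph1 were picked by Pearson correlation over the 12 arrays among 18546 genes with an official symbol. They were Cacybp (r = 0.98), Stip1 (0.96), Txnl4a (0.95), Coq10a (0.95) and Jtb (0.94). Cacybp was 0.52 higher in CD70TG and 0.47 higher in Ifng-/- mice than in WT, the layout of Hsph1 at a smaller size. Those most like Dnajb1 were Cmc2 (0.94), Sesn2 (0.94), Ccdc117 (0.94), Rbm45 (0.93) and Snord35a (0.93). The points share the normalization and the group structure, and the correlations are descriptions.

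Other cells in the enriched fraction changed with the transgene. Of 16 macrophage markers 15 fell in CD70TG relative to WT (median -1.67) and 15 fell in CD70TG*Ifng-/- relative to Ifng-/- (median -2.69), where 0 of the 9 heat shock genes passed. Of all genes, 2.7% were lower and 8.23% higher in CD70TG relative to WT, and 2.35% were lower in CD70TG*Ifng-/- relative to Ifng-/-. The mean macrophage value ran from -1.29 to -1.22 in CD70TG*Ifng-/-, -0.93 to -0.64 in CD70TG, 1.05 to 1.45 in Ifng-/- and 0.69 to 1.30 in WT. Of 10 B cell markers 9 fell in CD70TG relative to WT, with array means of -0.57 to -0.48 in CD70TG and 0.13 to 0.52 in WT. Of 14 neutrophil and granule markers 3 fell and 1, Prtn3, rose, with array means of -0.19 to 0.20 in CD70TG and 0.71 to 0.83 in WT. Of 12 red cell precursor markers 2 fell, Alas2 and Trim10, beside 4.43% of the higher level class, which holds all 12. The median of the 12 was 0.05, beside 0.19 for the class, and 4 fell with centring within the level classes. Of 7 T cell markers 1 fell, Cd4, and of 5 megakaryocyte markers 0 passed. The heat shock genes are expressed in all of these cells, and the part of cell makeup in their differences was not tested.

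Immediate early genes, which rise within minutes of handling or stress, were set beside the heat shock genes. Of 20, 2 fell in CD70TG relative to WT and 3 fell in CD70TG*Ifng-/- relative to Ifng-/-, beside 2.7% and 2.35% of all genes. In CD70TG*Ifng-/- relative to CD70TG 1 rose, Jun, by 0.80 ± 0.15 (SE, adjusted p = 0.0148), beside 0.426% of all genes. Their mean ran from -0.08 to -0.07 in CD70TG*Ifng-/-, -0.20 to -0.01 in CD70TG, 0.01 to 0.39 in Ifng-/- and 0.01 to 0.14 in WT. WT was not the low group of this list, and the part of handling in the heat shock values was not tested.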

How the data were processed

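The authors deposited log2 values made by RMA, per the submitters' processing notes. The version is not given in the sources used here, nor is the step that set each probe set's median over the 12 arrays to 0. The log base and the direction were taken from what RMA gives. Of 28815 probe sets, 21780 carried 1 symbol, 1605 several and 5430 none in the platform annotation. Probe sets with 1 symbol were averaged to 19935 genes. Groups came from the labels, which number separate mice, 3 to a group.

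One model with 4 group means was fitted to all genes with limma 3.58.1 in R 4.3.3 (lmFit, then eBayes, with 8 degrees of freedom from the residuals and 6.23 from the prior), with two-sided tests and Benjamini-Hochberg adjustment over all genes at 0.05. On simulated data for CD70TG minus WT over 19935 genes, 65% of 100 genes changed by 0.5 and 99% of 100 changed by 1 were recovered, with 13 false calls. The number of arrays limits the precision.

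The members and lists were chosen with earlier results of these data known. The text names all 9 measured members, and by rule up to 4 genes of each chaperone list, 2 of each marker list and 5 by likeness. Other genes it names were chosen after their values were seen. Alternatives were array median centring, quantile normalization, centring within level classes, the widest probe set, robust eBayes, a replicate block, only the groups compared, only genes of the higher class, and each array left out.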

Additional observations from a re-analysis of the deposited data

Results flagged for a closer look

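The transgene effect with Ifng minus that without it passed the limma test for 3 of the 9 heat shock genes, and since this contrast holds the difference between CD70TG and WT, with which the list was proposed, these values are descriptions. They are Hsph1 at 1.46 ± 0.23 (SE, adjusted p = 0.00727), Hspa8 at 0.82 ± 0.18 (adjusted p = 0.0369) and Hspe1 at 0.77 ± 0.16 (adjusted p = 0.0273).

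The same difference of effects passed for 9 other chaperone genes, beside 1.61% of all genes and 3.16% of the higher level class that were higher. Their lists too were drawn up with earlier results of these data known. Among Hsp90 co-chaperones these were Chordc1 at 1.12 ± 0.22 (adjusted p = 0.0241), Stip1 at 0.81 ± 0.15 (adjusted p = 0.0201), Ahsa1 at 0.69 ± 0.13 (adjusted p = 0.0212) and Nudc at 0.50 ± 0.12 (adjusted p = 0.0463). St13 was at 0.86 ± 0.20 (adjusted p = 0.0432) and Dnajc21 at 0.50 ± 0.11 (adjusted p = 0.0423). In the endoplasmic reticulum list P4hb was at 0.85 ± 0.18 (adjusted p = 0.0344), Pdia3 at 0.83 ± 0.20 (adjusted p = 0.0476) and Sel1l at 0.80 ± 0.18 (adjusted p = 0.0379). For Dnajc3 the transgene effect was 0.32 with Ifng (adjusted p = 0.0641) and -0.25 without it (adjusted p = 0.338), neither past the threshold. The difference of these effects, 0.57 ± 0.15, missed the threshold too (adjusted p = 0.0623).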

How the results depend on the processing

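For 49 named genes in 5 contrasts, 4416 of 4736 values under the alternatives stayed on their side of the threshold, 259 lost it and 61 gained it. Most of these differences were not past it in the main fit, so the total says little about the calls. The 259 come from the calls alone. Among the 4416, 80 differences that were past it in neither setting changed sign, including those of Dnajb1, Hspa4, Hsp90aa1 and Hspe1 without Ifng and of Dnajb1, Hspa5 and Hsp90aa1 with the transgene, each with 1 array left out. In CD70TG against WT the median of the 9 genes was 0.54 with quantile normalization and 0.30 with centring within level classes, where 4 of the 9 were past the threshold. Class centring gave medians of 0.24 in Ifng-/- against WT and 0.36 for the difference of transgene effects. With the replicate block 8 co-chaperones were higher in CD70TG than in WT, and the difference of effects passed for 1 of the 9, 1 co-chaperone and 1 of the 122. Same-numbered mice of different groups correlated from -0.40 to 0.31 in their deviations (median -0.07), so the numbers were taken as names.

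Without Ifng, 0 of the 122 were higher with array median centring, the block, only the groups compared or only higher-class genes, while 1 was lower with array median centring and 2 with quantile normalization or class centring. In Ifng-/- against WT, quantile normalization put 1 of the 9, 1 co-chaperone and 1 of the 122 past the threshold, only the groups compared 1 of the 9, and only higher-class genes 4 of the 9, 2 co-chaperones and 2 of the 122. In CD70TG*Ifng-/- against CD70TG, only higher-class genes gave 1 of the 9 and 4 of the 122 lower. For the difference of effects, quantile normalization gave 1 of the 9, and only higher-class genes 7 co-chaperones and 14 of the 122 higher and 1 lower, with 1 lower under class centring too.

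With each array left out, CD70TG against WT gave 4 to 7 of the 9, 8 to 14 co-chaperones, and 15 to 45 of the 122 higher and 1 to 2 lower, with a median of the 9 from 0.36 to 0.51. Without Ifng the transgene gave 0 to 1 of the 9 lower, 0 to 1 co-chaperones higher, and 0 to 4 of the 122 higher and 0 to 2 lower, with a median from -0.14 to 0.03. Ifng-/- against WT gave 0 to 2 in each set, with a median from 0.33 to 0.40. CD70TG*Ifng-/- against CD70TG gave 0 to 1 of the 9 lower, and 1 to 2 of the 122 higher and 0 to 5 lower, with a median from -0.22 to -0.06. The difference of effects gave 1 to 4 of the 9, 0 to 6 co-chaperones and 0 to 18 of the 122, with a median from 0.44 to 0.55. The cause of these changes was not tested.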
